A study of Mus musculus with 8 samples.

Results

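The transforming growth factor beta (TGF-beta) pathway was examined in AtT20 cells through 9 genes chosen by name: the ligands *Tgfb1*, *Tgfb2* and *Tgfb3*, the receptors *Tgfbr1*, *Tgfbr2* and *Tgfbr3*, and the signal mediator and feedback genes *Smad3*, *Smad7* and *Skil*. All 9 are among the 19751 gene symbols on the array. The rule that names them uses no measured value, but they were chosen with earlier results of these data known. AtT20 is a mouse line of pituitary corticotroph tumor cells. RNA came from 4 control samples, incubated for 48 hr without the agonist, and from 4 samples incubated for 48 hr with 10 μM HX630, a synthetic agonist of the retinoid X receptors (RXRs), which are nuclear receptors. Both groups were kept in medium with stripped serum, and the labels name no engineered allele. Each sample was hybridized to 1 single-color Agilent array. All samples are of 1 tumor line, and the labels do not say whether the replicates were separate cultures, so that p-values measure the spread between these samples, which may be technical.

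TGF-beta ligands are secreted in a latent form held by extracellular matrix proteins and are freed by integrins and proteases. The free ligand binds the type II receptor, which phosphorylates the type I receptor, and that kinase in turn phosphorylates Smad2 and Smad3, which enter the nucleus with Smad4 and act on target genes. Smad7 and the SnoN protein, the product of *Skil*, are themselves induced by the signal and restrain it. In many epithelial and endocrine cells the pathway slows growth, raises inhibitors of cyclin-dependent kinases and raises genes of the extracellular matrix.

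Of the 9 genes, 7 could be tested, because a probe of theirs stood well above background on 4 or more of the 8 arrays. *Tgfbr1* was higher with HX630, *Tgfb3* and *Smad3* were lower, and 4 genes (*Tgfb1*, *Tgfb2*, *Smad7* and *Skil*) did not pass the thresholds, which were an adjusted p below 0.01 in limma and a fold change above 1.5. Over the 15320 genes tested, 8.38% were called higher and 11.2% lower by the same rule, and the 1 rise and 2 falls among 7 genes are too few to be set apart from these shares. The median log2 fold change of the 7 genes was -0.14, against -0.034 for all genes tested. No array measured *Tgfbr2* or *Tgfbr3* well above background.

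All signals below are the log2 of the processed intensity minus the 75th percentile of the array, so that 0 stands for the 75th percentile, and fold changes are HX630 minus control on the log2 scale. In intensity units that percentile ranged from 1335 to 1863 for control samples and from 1803 to 1899 for HX630 samples. An array had 69.7% to 73.5% of its probes well above background and 0 saturated spots. Across probes the arrays correlated at 0.994 to 0.998 within groups and at 0.978 to 0.984 between groups. The arrays lay on 2 slides, of which 0 held both groups, and an effect of slide or scan and one of treatment therefore cannot be told apart. All 7 corticotroph markers were detected well above background on the 8 arrays, and 3 of them were called: *Pcsk1*, a prohormone convertase, lower by -2.06 (SE 0.052), and *Crhr1*, the receptor for corticotropin-releasing hormone, and *Neurod1* higher by 1.11 (SE 0.042) and 0.72 (SE 0.081). Of all genes tested, 8.38% were called higher and 11.2% lower. *Pomc*, the ACTH precursor, was at 8.03 ± 0.18 (SD, n = 4) in the control and 7.57 ± 0.041 (SD, n = 4) with HX630. Its log2 fold change of -0.45 (SE 0.086, limma adjusted p = 0.00241) passed the p threshold and not the fold threshold, so that it was not called. Every HX630 array lay below every control array for *Pomc*.

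Promoter sequences show what lies before the starts of *Tgfbr1*, called higher, *Smad3*, called lower, and *Tgfb2*, which was not called. A table of RefSeq promoters on mouse build GRCm38.p6 held 5 of the 9 genes, and 3 windows of 250 bases upstream of the start are printed, each read 5′ to 3′ on the strand of its gene. They are those of *Tgfb2* (chr1:186705990-186706239, minus strand), *Tgfbr1* (chr4:47352972-47353221, plus strand, the first of 2 listed starts) and *Smad3* (chr9:63757995-63758244, minus strand). Capitals mark every match, on either strand, to 1 of 8 short motifs that are spelled out after the sequences.
Tgfb2: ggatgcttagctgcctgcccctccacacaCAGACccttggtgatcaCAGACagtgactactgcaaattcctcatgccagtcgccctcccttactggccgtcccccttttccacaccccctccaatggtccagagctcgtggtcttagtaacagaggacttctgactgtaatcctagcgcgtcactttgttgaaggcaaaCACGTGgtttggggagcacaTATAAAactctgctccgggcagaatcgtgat
Tgfbr1: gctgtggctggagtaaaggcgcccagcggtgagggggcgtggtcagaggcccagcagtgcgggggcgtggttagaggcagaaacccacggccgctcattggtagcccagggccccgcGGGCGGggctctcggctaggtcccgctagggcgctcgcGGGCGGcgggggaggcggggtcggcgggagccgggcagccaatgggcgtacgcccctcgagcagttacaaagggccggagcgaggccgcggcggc
Smad3: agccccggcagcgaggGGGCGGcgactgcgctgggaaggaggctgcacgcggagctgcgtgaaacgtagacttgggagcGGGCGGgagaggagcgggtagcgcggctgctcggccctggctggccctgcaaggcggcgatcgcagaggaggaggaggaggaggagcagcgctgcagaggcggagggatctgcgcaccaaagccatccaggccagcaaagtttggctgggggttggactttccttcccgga

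The *Tgfb2* window held 2 copies of CAGAC, the core of Smad sites, at 221 and 204 bases before the start. It also held the hypoxia core ACGTG on each strand within 1 stretch of capitals, and the TATA box TATAAA at 31 bases before the start. Both the *Tgfbr1* and the *Smad3* window held 2 copies of the GC box GGGCGG and none of the other letters searched. Among 32851 promoter windows of the same length, the Smad core stood in 42.2%, the GC box in 32.7%, the hypoxia core in 16.6% and the TATA box in 12.4%. The other motifs, with no match in the 3 windows, were the RXR core site AGGTCA (in 14% of all windows), the AP-1 site TGANTCA (in 6.75%), the cAMP response element TGACGTCA (in 1.55%) and the Smad palindrome GTCTAGAC (in 0.167%). The window before the second listed start of *Tgfbr1*, not printed, held 1 copy of the Smad core and no GC box. The absence of a match says only that these letters are not in the window.

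Among the ligands, *Tgfb3* was lower with HX630. Its signal was 1.88, 1.64, 1.65 and 1.74 on the 4 control arrays and 0.0048, -0.29, -0.34 and -0.30 on the 4 HX630 arrays. Every HX630 array lay below every control array, and the first HX630 array was the highest of its group. The control mean was 1.73 ± 0.11 (SD, n = 4) and the HX630 mean -0.23 ± 0.16 (SD, n = 4). The log2 fold change was -1.96 (SE 0.091, 95% interval -2.17 to -1.75, limma adjusted p = 1.22e-06), which left 25.7% of the control signal. In RNA from whole cultures, fewer cells that express a gene and less of its RNA per cell cannot be told apart. Under all 25 settings of the processing *Tgfb3* was called lower, with fold changes from -2.04 to -1.73.

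The array holds the *Tgfb3* probe 10 times, which shows the spread among spots of 1 hybridization. It does not show errors of labeling, hybridization or slide. The SD among these spots within an array had a median of 0.029 and was at most 0.038, while the SD between arrays of a group was 0.11 and 0.16. The spots of any 1 array thus lay closer together than the arrays of a group did. The probe of *Skil* and that of *Tgfb1* are also printed 10 times, with median SDs among spots of 0.078 and 0.51.

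**Figure D1:**
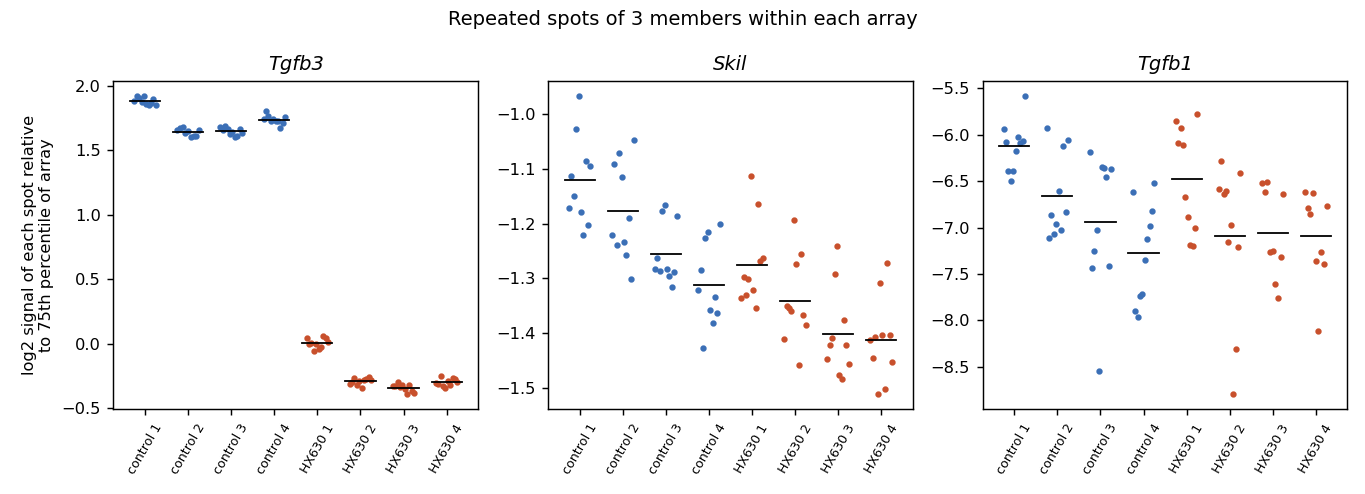
Log2 signal of each repeated spot (points) of *Tgfb3*, *Skil* and *Tgfb1*, with the mean per array (black line), for the 4 control arrays (blue) and the 4 HX630 arrays (red); the panels have different y ranges. The *Tgfb3* spots within an array had a median SD of 0.029, the *Tgfb1* spots 0.51.

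*Tgfb1*, the ligand whose name the family carries, was at the limit of detection. Its signal was -6.12, -6.66, -6.94 and -7.27 on the control arrays and -6.47, -7.10, -7.06 and -7.09 on the HX630 arrays, and the groups overlapped. Only 30 of its 80 spots were well above background, and the probe passed the filter on 2 control and 2 HX630 arrays, exactly the 4 needed. With a log2 fold change of -0.18 (SE 0.26, 95% interval -0.77 to 0.42, limma adjusted p = 0.574) it was not called. The interval includes falls past the fold threshold, so that a fall of that size was not excluded. Its sign turned with scaling to spike-in probes, where it was 0.053, and without the first control array, where it was 0.029.

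*Tgfb2* has 2 probes on the array, and neither was called under the main processing. On the brighter probe the control arrays gave -4.23, -4.54, -3.35 and -4.34 and the HX630 arrays -3.44, -3.12, -3.18 and -3.28. The third control array lay within the range of the HX630 arrays, and the other control arrays lay below it. The log2 fold change was 0.86 (SE 0.24, 95% interval 0.29 to 1.43, limma adjusted p = 0.017), and an exact two-sided permutation test over the 70 regroupings of the arrays gave p = 0.0571. Without the third control array the fold change was 1.11 (adjusted p = 1.56e-04) and passed the thresholds.

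On the dimmer *Tgfb2* probe the control arrays gave -5.97, -6.12, -5.92 and -5.89 and the HX630 arrays -5.61, -5.35, -5.36 and -5.44. These groups did not overlap, and the change of 0.54 (SE 0.076, limma adjusted p = 5.32e-04) lay under the fold threshold of 0.585. With normexp background correction it was -0.015 (adjusted p = 0.952). Measured on the same array, where any scaling of the array cancels, the *Tgfb2* signal on the brighter probe minus the *Tgfb3* signal was 2.82 (SE 0.32) higher with HX630 than in the control.

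**Figure D2:**
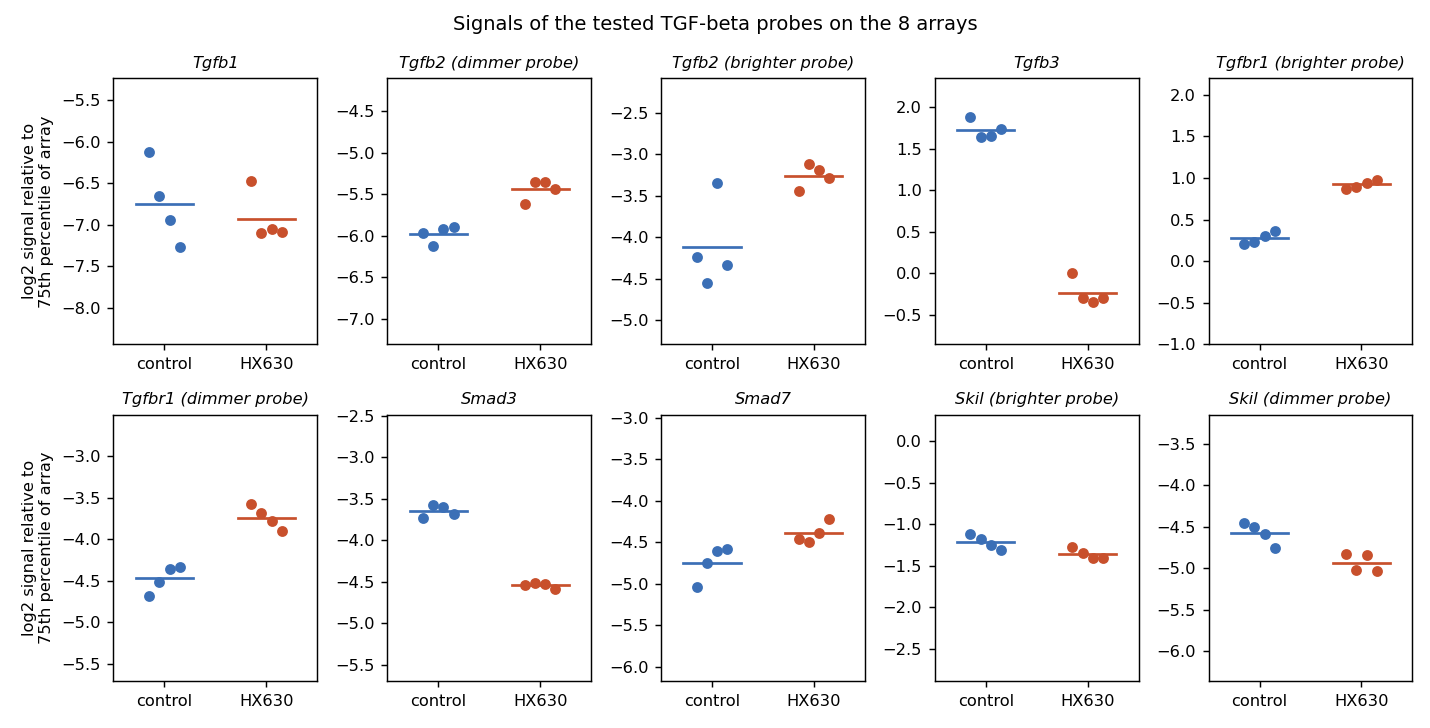
Log2 signal relative to the 75th percentile of the array for the 10 tested probes of the 7 genes, 1 point per array and a line at the mean of each group (4 control arrays in blue, 4 HX630 arrays in red); every panel spans the same range on the y axis. The groups lie furthest apart for *Tgfb3* (-1.96), and they overlap for *Tgfb1*, for the brighter probe of *Tgfb2* and for the brighter probe of *Skil*.

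Of the receptors, *Tgfbr1*, the type I receptor kinase, was higher with HX630 on both of its probes. The brighter probe gave 0.21, 0.23, 0.30 and 0.37 on the control arrays and 0.87, 0.89, 0.94 and 0.98 on the HX630 arrays. The groups did not overlap and the arrays within a group lay close together. The control mean was 0.28 ± 0.071 (SD, n = 4) and the HX630 mean 0.92 ± 0.049 (SD, n = 4). The log2 fold change was 0.65 (SE 0.047, 95% interval 0.54 to 0.76, limma adjusted p = 1.23e-05), or 1.57-fold, which is just past the threshold of 1.5. The interval reaches below that threshold, and the gene was called higher under all 25 settings, with log2 fold changes from 0.63 to 0.88.

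The dimmer *Tgfbr1* probe gave -4.69, -4.52, -4.35 and -4.33 on the control arrays and -3.58, -3.69, -3.79 and -3.90 on the HX630 arrays. Every HX630 array was above every control array here too. Its log2 fold change was 0.73 (SE 0.099, limma adjusted p = 4.07e-04), and it was 0.29 (adjusted p = 0.14) with normexp background correction. On the same arrays, *Tgfbr1* minus *Tgfb3* was 2.61 (SE 0.12) higher with HX630.

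The 2 probes of *Tgfbr2*, the type II receptor that binds the ligand first, and the only probe of *Tgfbr3*, the co-receptor betaglycan, were not well above background on any control or HX630 array. No level or fold change is therefore given for these receptors.

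*Smad3*, the receptor-activated Smad that carries the signal to the nucleus, was lower with HX630. Its signal was -3.73, -3.58, -3.61 and -3.68 on the control arrays and -4.54, -4.52, -4.52 and -4.59 on the HX630 arrays. The arrays of each group lay within a narrow range, and the groups were far apart. The control mean was -3.65 ± 0.070 (SD, n = 4) and the HX630 mean -4.54 ± 0.032 (SD, n = 4). The log2 fold change was -0.89 (SE 0.043, 95% interval -0.99 to -0.79, limma adjusted p = 1.52e-06), which left 53.8% of the control signal. It was called lower under all 25 settings, with fold changes from -0.92 to -0.66. A second *Smad3* probe was not well above background on any array.

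*Smad7*, the inhibitory Smad that blocks the type I receptor, was not called. Its signal was -5.04, -4.74, -4.61 and -4.58 on the control arrays and -4.46, -4.50, -4.39 and -4.22 on the HX630 arrays. The groups did not overlap, as was the case for 61.5% of all genes tested. HX630 minus control was 0.35 on the log2 scale (SE 0.11, 95% interval 0.093 to 0.61, limma adjusted p = 0.0267). Scaling to spike-in probes put it at 0.59 (adjusted p = 0.00891), past the thresholds, but that scaling also moved the median of all genes from -0.034 to 0.20. On the same array, *Smad7* minus *Smad3* was 1.25 (SE 0.12) higher with HX630.

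*Skil*, which encodes the Smad corepressor SnoN, was not called on either of its probes. The probe with 10 spots gave -1.12, -1.18, -1.25 and -1.31 on the control arrays and -1.27, -1.34, -1.40 and -1.41 on the HX630 arrays, and the groups overlapped. Its log2 fold change was -0.14 (SE 0.054, 95% interval -0.27 to -0.016, limma adjusted p = 0.0534), an interval that excludes a change of 1.5-fold in either direction under this scaling. Scaling to spike-in probes turned the sign, to 0.090. The dimmer probe gave -4.46, -4.51, -4.59 and -4.75 on the control arrays and -4.83, -5.03, -4.84 and -5.04 on the HX630 arrays, groups that did not overlap. Its log2 fold change of -0.36 (SE 0.080, limma adjusted p = 0.00585) passed the p threshold and not the fold threshold, as it did for many genes: 51.2% of all genes tested had an adjusted p below 0.01 with no fold threshold. *Smad3* minus *Skil* on the same array was 0.75 (SE 0.066) lower with HX630, a change of -0.75.

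**Figure D3:**
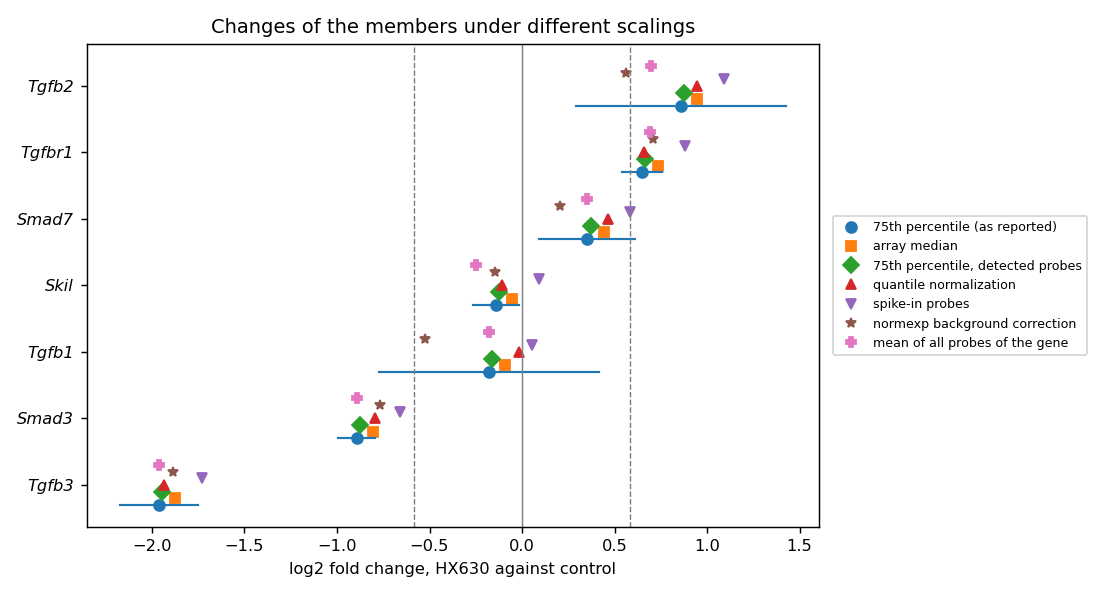
Log2 fold change (x axis, HX630 against control) of the 7 tested genes under the scaling used here and 6 other treatments of the same signals (symbols), with the 95% interval of the reported value (blue line) and the fold threshold of 1.5 (dashed lines). *Tgfb3* (-2.04 to -1.73 over all settings run), *Smad3* (-0.92 to -0.66) and *Tgfbr1* (0.63 to 0.88) stay past the dashed lines, while *Tgfb1* and *Skil* lie on both sides of 0.

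The genes whose profiles over the 8 arrays were nearest to that of *Tgfb3* were sought among 14307 genes well above background on all arrays, by the root mean square difference of the log2 signals after each gene's own mean was subtracted. They were *Gem* (0.045), a small GTPase, *Rnf125* (0.057), a ubiquitin ligase, *Dusp4* (0.060), a phosphatase of MAP kinases, *Klhl30* (0.068) and *Mgll* (0.069), which encodes monoacylglycerol lipase. Their log2 fold changes ran from -2.02 to -1.93, close to that of *Tgfb3* because the measure asks for it. In all 5, as in *Tgfb3*, the first HX630 array was the highest of the HX630 arrays. This too follows from the measure, which compares the genes array by array. *Gem*, for example, was at -1.19, -1.49, -1.59 and -1.43 with HX630.

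The remaining genes of the pathway were taken from lists of 115 genes in all, of which 114 are on the array and 86 could be tested. Of these, 8 were called higher (9.30%) and 14 lower (16.3%), beside 8.38% and 11.2% of all genes tested. The 14 include *Ccn2*, *Tgfbi* and *Itgb8*, which passed the filter through the control arrays alone. For 18 of the 86 genes more than 1 probe was tested, and in 5 of these the probes differed in sign, so single small changes are uncertain there.

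**Figure D4:**
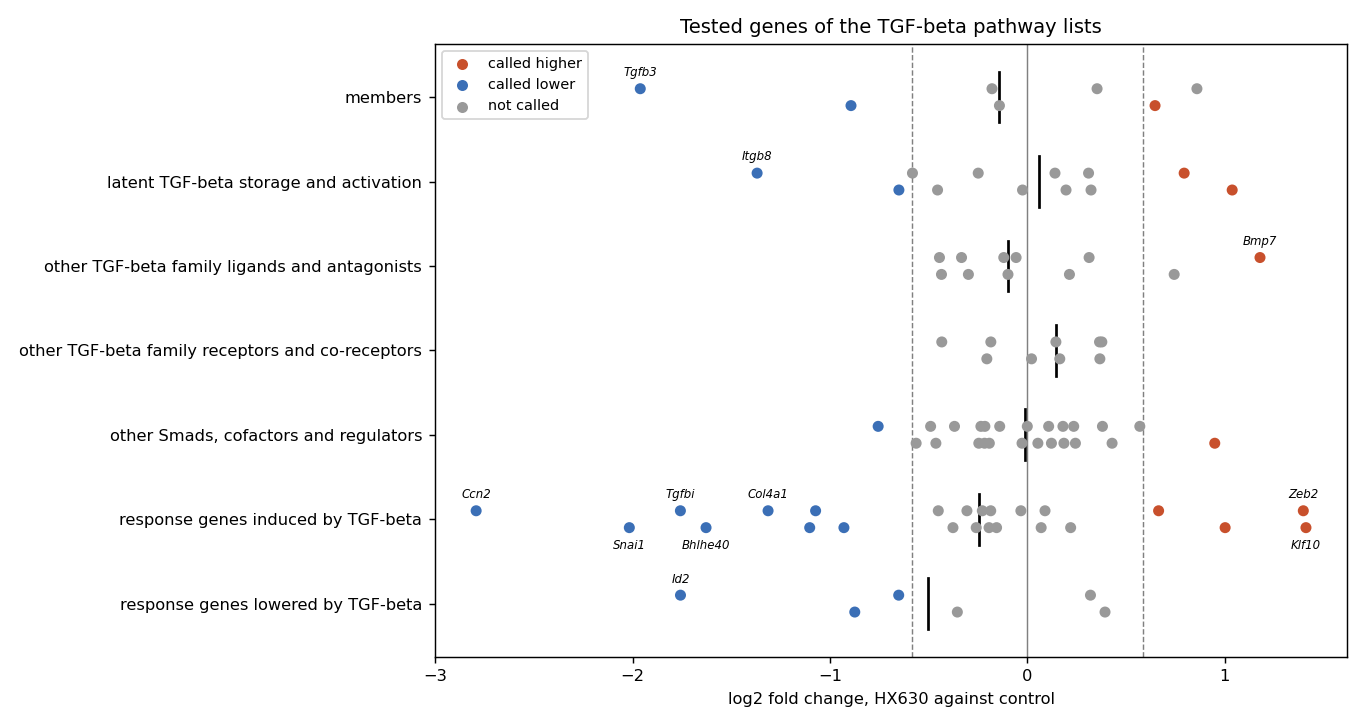
Log2 fold change (x axis, HX630 against control) of each tested gene, 1 point per gene, in the set of 9 genes and in 6 lists of other pathway genes; black lines mark medians and dashed lines the fold threshold of 1.5. Of the 24 induced response genes tested, 8 were called lower and 4 higher, beside 11.2% and 8.38% of all genes tested. Among the 8, *Ccn2* and *Tgfbi* were detected on control arrays only. None of the 9 other receptors was called.

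Proteins that store and free the latent ligand moved in both directions. Of 20 genes listed 12 were tested, with 2 called higher and 2 lower, beside 8.38% and 11.2% of all genes tested, and a median of 0.058. With detection required on all 8 arrays the list had 3 calls. *Itgb8*, an integrin chain that activates latent ligand, was at -6.12 ± 0.37 (SD, n = 4) in the control and not well above background on the 4 HX630 arrays, at a measured mean of -7.49 ± 0.18 (SD, n = 4). It passed the filter through the control arrays alone, so that no p-value is given for its call. Under the main processing it was at least 1.93-fold lower with HX630. This bound sets the control mean against the lowest signal among probes well above background, or the probe's own signal where that was higher. With normexp background correction *Itgb8* was not called (-0.86, adjusted p = 0.0159). That fall is smaller than the bound, which therefore holds for the main processing only.

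*Fbn2*, a fibrillin of the microfibrils that hold latent complexes, was lower by -0.65 (SE 0.084, limma adjusted p = 3.19e-04) on the log2 scale, and its second tested probe gave -1.98. It was not called with the median, quantile normalization or spike-in probes. The small proteoglycans *Bgn* (biglycan) and *Dcn* (decorin), which bind the ligand, were higher by 0.79 (SE 0.084) and 1.04 (SE 0.24). *Dcn* was the least certain, with SDs of 0.50 and 0.22 within the groups and calls in 14 of 24 settings, and it was at 0.16 (adjusted p = 0.568) with normexp background correction. *Ltbp3*, which anchors the latent ligand in the matrix, went from 3.31 ± 0.064 (SD, n = 4) to 2.73 ± 0.018 (SD, n = 4), a change of -0.58 (adjusted p = 9.02e-06) that lay just under the fold threshold. The protease *Mmp2* was well above background on 0 control arrays and 3 HX630 arrays and was not tested.

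Other ligands and antagonists of the family were mostly not called. Of 21 listed genes 11 were tested, with 1 called higher and 0 lower by limma, beside 8.38% and 11.2% of all genes tested. With no fold threshold 2 were higher and 2 lower at an adjusted p below 0.01, beside 51.2% of all genes in either direction. *Bmp7*, a bone morphogenetic protein, gave -4.71, -4.79, -4.65 and -4.97 on the control arrays and -3.65, -3.56, -3.55 and -3.66 on the HX630 arrays, and its log2 fold change was 1.18 (SE 0.072, limma adjusted p = 4.88e-06), or 0.68 (adjusted p = 0.00125, still called) with normexp background correction. *Gdf15*, a distant family member, passed the p threshold only, at -0.44 (adjusted p = 2.94e-05). The 10 tested genes of this list that were not called ranged from -0.45 to 0.74.

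None of the 9 tested genes among 13 other receptors and co-receptors was called, by limma with the fold threshold. Without the fold threshold 3 of the 9 passed an adjusted p below 0.01, beside 51.2% of all genes tested. These were *Acvr2a* at 0.38 (adjusted p = 2.97e-04) and *Acvr1b* at 0.37 (adjusted p = 5.59e-04), type II and type I activin receptors, and *Acvr2b*, another type II activin receptor, at -0.43 (adjusted p = 2.56e-05). The methods' t-test with the fold threshold also called 0 of the 9. *Bmpr2*, the type II receptor for bone morphogenetic proteins, was at 1.82 ± 0.083 (SD, n = 4) and 1.97 ± 0.036 (SD, n = 4).

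Among the other Smads, their cofactors and regulators, 24 of 25 were tested, with 1 called higher and 1 called lower. Of all genes tested, 8.38% were called higher and 11.2% lower. *Pmepa1*, which encodes a membrane protein that sequesters receptor-activated Smads, was at -3.06 ± 0.071 (SD, n = 4) in the control and at -2.11 ± 0.054 (SD, n = 4) with HX630, higher by 0.95 (SE 0.048, limma adjusted p = 1.80e-06), and its second probe gave 1.04. *Foxh1*, a DNA-binding partner of Smads, was lower by -0.76 (SE 0.086, adjusted p = 1.60e-04), and was not called with spike-in scaling. *Smad4*, the partner shared by all receptor-activated Smads, had a fold change of -0.027 (SE 0.034, adjusted p = 0.518).

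*Smad2*, which is activated by the same receptor as *Smad3*, had a log2 fold change of 0.38 (adjusted p = 4.78e-05), under the fold threshold and in the other direction from *Smad3*. *Smad5* and *Smad9*, which serve bone morphogenetic protein receptors, were at -0.46 (adjusted p = 3.74e-05) and 0.43 (adjusted p = 3.81e-04). The ubiquitin ligases *Smurf1* and *Nedd4l*, which mark Smads and receptors for turnover, were at -0.56 (adjusted p = 4.56e-05) and 0.57 (adjusted p = 4.66e-05), both just under the threshold. *Nedd4l* passed it in 8 alternatives, and its second probe gave 1.23. The corepressor *Tgif1* was at -0.49 (adjusted p = 1.12e-05).

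The response genes that TGF-beta is known to induce in many cell types made up 1 of the larger lists. Of 29 genes listed 24 were tested, 8 were called lower and 4 higher, beside 11.2% lower and 8.38% higher among all genes tested, and the median was -0.24. The 8 include *Ccn2* and *Tgfbi*, which passed the filter through the control arrays alone. With detection required on all 8 arrays the list had 9 calls in place of 12. *Snai1*, a repressor of epithelial genes, gave -2.18, -2.24, -2.19 and -2.15 on the control arrays and -3.95, -4.39, -4.27 and -4.22 on the HX630 arrays. The groups were far apart, and the first HX630 array was the highest of its group. Its log2 fold change was -2.02 (SE 0.087, limma adjusted p = 8.83e-07), which left 24.7% of the control signal. *Bhlhe40*, a transcriptional repressor of the circadian clock, had a fold change of -1.63 (SE 0.057), *Col4a1*, a basement membrane collagen, -1.31 (SE 0.077), *Itgb5*, an integrin chain, -1.07 (SE 0.039), and *Cdkn1a*, the p21 inhibitor of cyclin-dependent kinases, -0.93 (SE 0.049). A second *Cdkn1a* probe gave -1.78. All 5 genes were called lower, with limma adjusted p-values of 4.05e-06 or less.

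The matricellular genes of the list were dim. *Ccn2*, connective tissue growth factor, was at -4.74, -4.73, -4.99 and -4.86 on the control arrays and not well above background on the 4 HX630 arrays, where the measured mean was -7.62 ± 0.44 (SD, n = 4). Under the main processing it was at least 4.71-fold lower with HX630. With normexp its fitted change was -1.48, a smaller fall than that bound, which therefore holds for the main processing only. *Ccn2* passed the filter through the control arrays alone, so that no p-value is given for its call. *Tgfbi*, a secreted matrix protein, was likewise below that level on every HX630 array, with measured means of -6.35 ± 0.13 and -8.11 ± 0.39 (SD, n = 4 each), and was at least 1.64-fold lower under the main processing. It too passed the filter through the control arrays alone, and no p-value is given for its call. With normexp background correction *Tgfbi* was not called (-0.88, adjusted p = 0.0239). *Ccn1* was well above background on 4 control arrays and 2 HX630 arrays, with a fold change of -1.10 (SE 0.14, adjusted p = 2.71e-04).

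Against these, 4 genes of the same list were higher. *Klf10*, an early gene of the pathway that represses *Smad7*, gave 0.21, 0.11, 0.068 and 0.11 on the control arrays and 1.56, 1.61, 1.48 and 1.5 on the HX630 arrays. Its log2 fold change was 1.41 (SE 0.046, limma adjusted p = 3.07e-07). *Gadd45b*, a stress and growth arrest gene, rose by 1.00 (SE 0.043, adjusted p = 8.42e-07), with 200.2% of the control signal. *Cdkn2b*, the p15 inhibitor of cyclin-dependent kinases, rose by 0.66 (SE 0.052, adjusted p = 1.93e-05), in the opposite direction from *Cdkn1a*. *Zeb2*, a repressor that binds Smads, was higher by 1.40 (SE 0.13, adjusted p = 5.15e-05), and by 0.65 (adjusted p = 0.0204, not called) with normexp background correction.

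**Figure D5:**
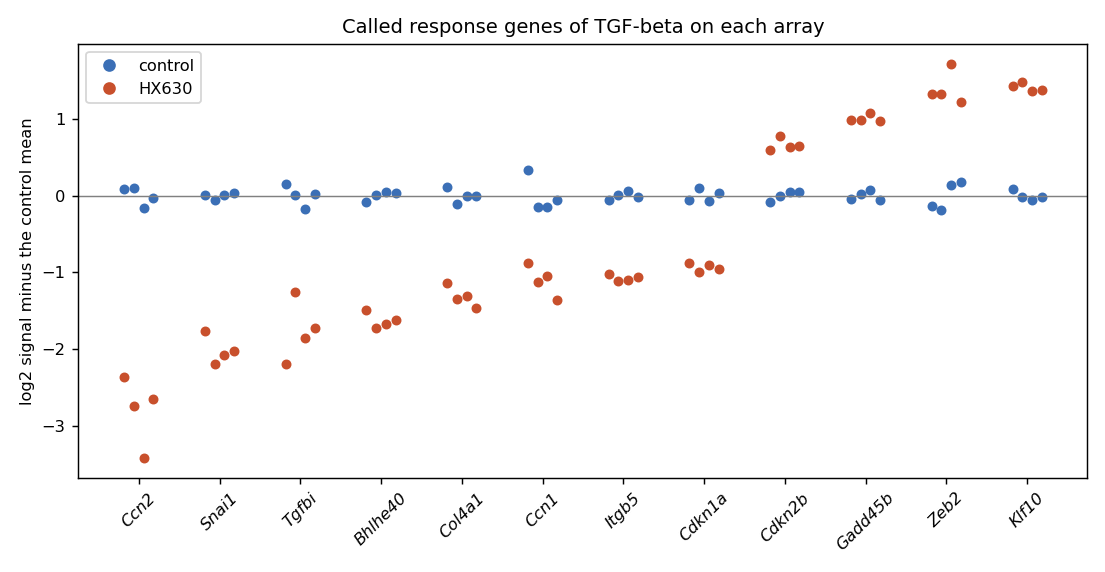
Log2 signal minus the mean of the control arrays (y axis) for the 12 induced response genes that were called, 1 point per array (4 control in blue, 4 HX630 in red). All 12 were chosen as called, and their groups do not overlap, as for 61.5% of all genes tested. The HX630 arrays of *Snai1* had a mean of -2.02 here; *Ccn2* and *Tgfbi* were not well above background with HX630, so that their points there are only bounds.

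Collagens other than *Col4a1* were not called. *Col1a1*, *Col1a2* and *Col3a1*, the fibrillar collagens, had fold changes of 0.22 (SE 0.28), 0.070 (SE 0.13) and -0.31 (SE 0.24). The intervals of these dim probes are wide. Fibronectin, *Fn1*, was not well above background on any array.

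Of 7 genes that TGF-beta is known to lower in epithelial cells, 6 were tested. With limma 3 were called lower and 0 higher, beside 11.2% and 8.38% of all genes tested, and the median was -0.50. With no fold threshold 4 were lower and 2 higher at an adjusted p below 0.01, beside 51.2% of all genes in either direction. *Id2*, an inhibitor of helix-loop-helix factors, gave 2.53, 2.51, 2.44 and 2.56 on the control arrays and 0.77, 0.74, 0.73 and 0.77 on the HX630 arrays. Its log2 fold change was -1.76 (SE 0.037, limma adjusted p = 7.88e-08). *Id3* was lower by -0.87 (SE 0.12, adjusted p = 5.39e-04) and *Myc* by -0.65 (SE 0.047, adjusted p = 1.27e-05). *Myc* was not called when the arrays were scaled to their medians or to spike-in probes or corrected with normexp. *Ccna2* (cyclin A2) and *Cdc25a*, which drive the cell cycle, were at 0.39 (adjusted p = 2.83e-05) and 0.32 (adjusted p = 8.27e-04), under the fold threshold.

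Markers of other cells were measured beside these genes, since AtT20 cultures should hold 1 cell type. Of 10 markers of folliculostellate, fibroblast, endothelial and immune cells on the array, 7 were tested and 2 were called lower, *Csf1r* by -0.72 (SE 0.070) on its brightest probe and *Pecam1* by -0.59 (SE 0.055), with adjusted p-values of 6.48e-05 and 4.99e-05. Of all genes tested, 11.2% were called lower. The other tested probes of *Csf1r* gave -0.15 and -0.31 and were not called. *Pecam1* was called in 17 of 24 settings and *Csf1r* in 23 of 24. The summed linear signal of the 7 tested markers, in units of the 75th percentile, was 0.928 to 1.08 on the control arrays and 0.635 to 0.752 on the HX630 arrays. The largest part of that sum, and of its fall, was the brightest *Csf1r* probe, at a log2 signal of -0.72 in the control and -1.44 with HX630. *Ptprc*, *Aldh1a1*, *Col1a2* and *Col3a1* were also well above background on all 8 arrays and were not called, *Ptprc* with a log2 fold change of -0.45 (SE 0.067, adjusted p = 6.59e-04). *Col1a1* was so on 2 control arrays and 4 HX630 arrays. The 3 other markers, *S100b*, *Cdh5* and *Pdgfra*, were not well above background on any array. Of 7 markers of other pituitary lineages 4 were tested and 1 was called, *Gh* by -0.79 (SE 0.12, adjusted p = 6.06e-04), in 23 of 24 settings. The sums of these 4 were 0.307 to 0.472 on the control arrays and 0.298 to 0.354 on the HX630 arrays. *Prl* and *Tshb* were not well above background on any array. The part of such cells in the results was not tested.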

How the data were processed

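Total RNA of 8 AtT20 samples, 4 control and 4 HX630, was labeled with Cy3 and hybridized to single-color Agilent mouse arrays. For each array the authors deposited the spot intensities of Feature Extraction 10.7.3.1, background-subtracted and detrended, and a table of log2 values, which differed from the log2 intensity minus the 75th percentile of the array by 0.00125 at most. In R 4.3.3, control spots (1377 of 44397) and outlier spots were left out, spots of a probe were averaged, and log2 intensities were reduced by the 75th percentile of the array. The 28553 probes well above background (at least 50% of their spots) on at least 4 arrays were compared with limma 3.58.1 (lmFit, eBayes) over all 8 arrays, with Benjamini-Hochberg adjustment. Calls needed a fold change above 1.5 and an adjusted p below 0.01. The study names the same fold and a p below 0.01 in a t-test, and states no adjustment. A gene was represented by its brightest tested probe.

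Probes were named through RefSeq accessions (GRCm38.p6 table, names only, since the array's design uses another build), and 26055 of 39429 probes matched. *Tgfb1i1* and *Cd68* were not matched, and 1 gene of the list of induced response genes is not reported here. The members, lists and rule for named genes were chosen with earlier results of these data known. Named genes were all members, up to 4 called genes per list and direction with the largest changes, genes above background in 1 group only, and the 5 profiles nearest to *Tgfb3*. Some genes just under the fold threshold, not called or measured as markers are named outside this rule, after their values were seen. Single values were tested by exact two-sided permutation over 70 regroupings (smallest p 0.0286). In simulated data with 200 of 28553 probes changed by 1 on the log2 scale, the code recovered 79%, with 3 false calls. The number of arrays limits the precision. Other scalings, filters, tests and thresholds, and each array left out in turn, were tried as alternatives. Real-time PCR and other experiments of the study are not analysed here.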

Additional observations from a re-analysis of the deposited data

Results flagged for a closer look

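In 2 of 20 groups of 4 arrays checked (10 tested probes in each of 2 groups), 1 array stood apart from the others by more than Dixon's 95% critical ratio, where chance gives about 1 in 20 groups. Both concerned the first HX630 array. For *Tgfb3* it was at 0.0048, above the others at -0.34 to -0.29, with a ratio of 0.857. For *Tgfb1* it was at -6.47, above the others at -7.10 to -7.06, with a ratio of 0.936. Without this array *Tgfb3* had a log2 fold change of -2.04 and stayed called.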

How the results depend on the processing

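*Tgfb3*, *Smad3* and *Tgfbr1* kept their direction and their call under all 24 alternatives. With spike-in scaling, 4344 probes were called higher and 1873 lower, against 2131 and 3185, and the median of all genes moved from -0.034 to 0.20. *Tgfb1* (0.053) and *Skil* (0.090) then changed sign, *Tgfb2* (1.09) and *Smad7* (0.59) were called, the genes called higher among the 9 became 3, and the lists had 2 calls for ligands, 3 for receptors and 4 for Smads and regulators. The ligand list also had 2 calls with the median, with quantile normalization and at an adjusted p below 0.05. At that threshold, as when a gene's probes were averaged, 2 of the 9 genes were called higher, *Tgfb2* being called at 0.86 and 0.70. With normexp, 1355 probes were called higher, the storage list had 2 calls in place of 4, and the dimmer *Tgfb2* probe was at -0.015, with *Tgfb2* at 0.56 and *Smad7* at 0.21. With no fold threshold 13009 probes were called against 5316 (5763 higher, 7246 lower), with 8 calls in the storage list, 4 among ligands, 3 among receptors, 13 among Smads and regulators and 6 among lowered response genes. Of all genes tested, 51.2% passed without it. The methods' t-test without adjustment called 2110 probes higher and 3128 lower, and 1981 and 2884 after Benjamini-Hochberg adjustment.

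With 1 array left out in turn, *Tgfb1* ranged from -0.35 to 0.029, the positive value without control array 1, and *Tgfb2* from 0.72 to 1.11, called only without control array 3, which brought the genes called higher from 1 to 2. The ligand list had 1 to 2 calls (2 without control array 1) and the Smad list 2 to 4 (4 without HX630 array 1). Same-numbered arrays deviated together with correlations of -0.0093 to 0.523, and 5 of 8 arrays correlated best with their own number, a hint from the data, while the labels tie no number to a shared culture or day, and pairing was not established. With the replicate number as a block 5556 probes were called (2210 higher, 3346 lower), the ligand list had 2 calls, and the 9 genes kept 1 call higher and 2 lower. The cause of these differences was not tested.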
